A study of Mus musculus with 2 samples.

Results

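The mouse collagen genes were described in adult testis as 44 of 21474 protein-coding genes quantified by RNA sequencing. The rule used only their names: they are the protein-coding genes whose symbol begins with Col, a number, the letter a and a number. That rule matched 45 symbols, and 1 of them, Col4a3bp, is no collagen: it encodes a lipid transfer protein, had a TPM (its length-normalised share of all transcripts, scaled to a fixed total per library) of 20.1 and 20.95 in the 2 libraries, and was left out of every collagen count. The members were divided into 11 fibrillar genes, 6 basement membrane genes (all of type IV) and 27 others.

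Collagens are matrix proteins whose chains carry a glycine at the start of each repeated triplet of residues, which lets chains wind around each other into a helix. Fibrillar collagens build the fibres of the interstitium, type IV collagens form the sheet-like network of basement membranes, type VI forms beaded filaments, and the FACIT collagens (fibril-associated, with interrupted helices) decorate fibrils. In the testis each seminiferous tubule is surrounded by a basement membrane and a layer of contractile peritubular myoid cells with collagen between them.

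Both libraries were made from whole testes of male C57BL/6J mice, littermates aged 8 weeks, with no treatment named. The RNA was over 200 nucleotides long, depleted of ribosomal RNA and selected for poly-A tails, and was sequenced as stranded pairs of 76 bases. The labels number the libraries as biological replicates 1 and 2 but give both the same donor identifier, so separate animals are not established and the spread between them may be partly technical. With 1 group of 2 libraries there was no test; values are given for replicate 1 and then replicate 2, and intervals cover counting error only.

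Expected counts summed over Ensembl genes came to 49023238 and 51465728. The libraries differed in genes of other cell types: of 13 epididymis markers the summed TPM was 917 in replicate 1 and 3.81 in replicate 2, led by Crisp1 (454 and 0.20), while 7 spermatid markers summed to 68060 and 64210. Of 7 skeletal muscle markers 1 was detected, and their sum of 20.2 and 3.15 was mostly Acta1 (13.3 and 0.66) and Ckm (5.47 and 1.2). Of the epididymis markers, 8 had 0 counts in at least 1 library. Among them Lcn10, Ovch2 and Spag11b had 0 in both, and Lcn8 and Lcn9 had no more than 1 count in either. Of the 8 markers with a mean count of at least 10, 7 were lower in replicate 2. Rnase10 was higher there, at 131 and 181 counts. In bulk tissue, fewer cells of a type and less RNA per cell cannot be told apart.

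The length of the glycine repeat sets the fibrillar class apart from the other collagens, and 3 stretches of 90 bases show what the repeat looks like. They come from the GENCODE M21 transcript sequences, glycine codons (those that begin with GG) at the triplet starts are in capitals, and in the last one every glycine codon after the break is also in capitals. The first is from the main transcript of Col1a1, the α1 chain of type I collagen, at transcript bases 647 to 736. The next is from a short transcript of Col22a1 that led the collagen genes in TPM, at bases 1 to 90. The last is from Col4a1, the α1 chain of type IV, at bases 669 to 758, around the end of its longest repeat.
Col1a1-201: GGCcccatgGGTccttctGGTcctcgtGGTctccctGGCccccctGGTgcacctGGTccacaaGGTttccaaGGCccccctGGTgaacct
Col22a1-202: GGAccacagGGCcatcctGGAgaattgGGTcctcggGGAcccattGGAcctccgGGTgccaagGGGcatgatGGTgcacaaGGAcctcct
Col4a1-201: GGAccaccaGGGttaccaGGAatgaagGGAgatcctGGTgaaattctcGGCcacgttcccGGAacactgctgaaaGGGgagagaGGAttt

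In Col4a1 the regular spacing stops after the fifth triplet shown. Over the whole-gene transcripts, the longest uninterrupted run was 337 to 344 triplets in 9 of the 11 fibrillar genes. Col24a1 and Col27a1, which encode fibrillar chains with shorter helices, had 216 and 217. The 6 type IV genes had 39 to 66 triplets, inside the range of 23 to 113 found in 26 of the 27 other genes.

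**Figure D1:**
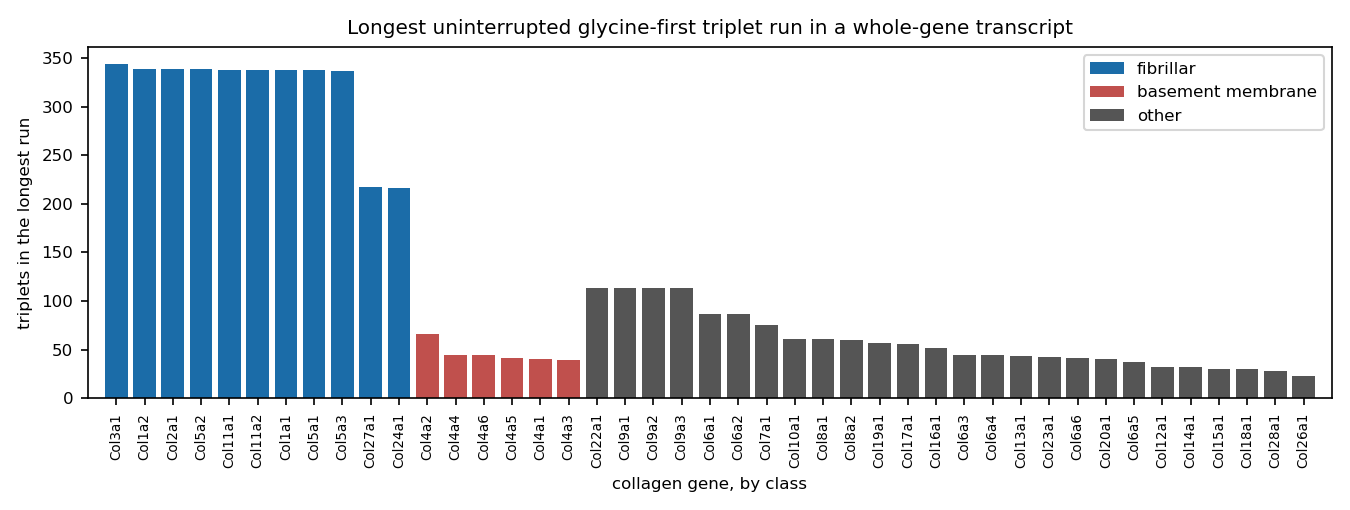
The bars give the number of triplets in the longest uninterrupted glycine-first run of a whole-gene transcript, for each collagen gene that has such a transcript. The fibrillar genes reach 344, and no gene of another class passes 113.

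Detection required a TPM of 1 or more in each library. Of the 44 collagens 31 were detected (70.5%), against 62.1% of all protein-coding genes. All 6 type IV genes, 7 of 11 fibrillar genes and 18 of 27 others were detected. Col5a2, a fibrillar chain, was just outside the threshold at 1.00 and 0.84, and Col7a1, the anchoring fibril collagen of epithelia, just inside it at 1.74 and 1.01. Summed over the 44 genes, the TPM was 776 and 714, and collagen counts were 0.130% and 0.113% of all counts.

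Of the 13 genes not detected, Col5a3 (0.91 and 0.53), Col28a1 (0.49 and 0.86), Col25a1 (0.47 and 0.65), Col19a1 (0.62 and 0.59) and Col8a1 (0.54 and 0.50) followed Col5a2. Col24a1, Col8a2, Col13a1, Col6a6 and Col11a1 lay between 0.21 and 0.46. Col9a2, a chain of the cartilage collagen type IX, had 4 and 6 counts. Col10a1, the collagen of hypertrophic cartilage, had 0 and 1 counts; 3 counts, the limit that a count of 0 allows, would be 6.12e-06% of that library.

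**Figure D2:**
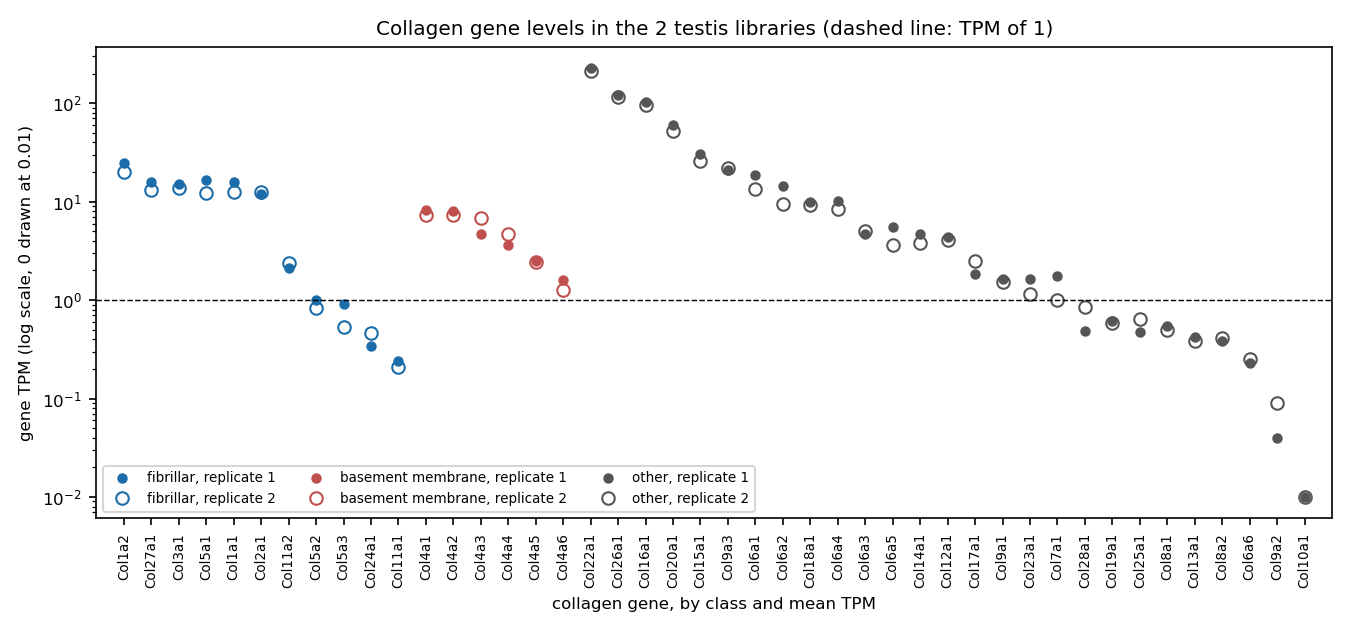
Each gene's TPM is plotted on a log axis for replicate 1 (filled) and replicate 2 (open), in the fibrillar, basement membrane and other classes. Fibrillar genes reach 24.7, type IV genes lie between 1.27 and 8.21, and the top of the plot is held by Col22a1, Col26a1 and Col16a1.

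By gene TPM the highest members were not the fibre-forming collagens. Col22a1, a FACIT collagen known from tissue junctions, had a TPM of 226 and 215. Col26a1, a collagen described from testis and ovary, had 120.3 and 116. Col16a1, another FACIT collagen, had 103.05 and 96.2. Both libraries gave this order, and in each gene the libraries differed by less than the gap to the next gene. Col20a1, also a FACIT collagen, followed at 59.4 and 52.8, and Col15a1, a multiplexin of basement membrane zones, at 30.7 and 25.8. Together these 5 genes held 69.5% and 70.9% of the collagen TPM.

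Col22a1 lies on the minus strand of chromosome 15 from 71795795 to 72034227, Col26a1 on the minus strand of chromosome 5 from 136741759 to 136883209, and Col16a1 on the plus strand of chromosome 4 from 130047840 to 130099283 (mm10). In each of the 5 genes most of that TPM was assigned to transcripts that cover only a piece of the gene. A whole-gene transcript is here a protein-coding one that spans at least 90% of its gene in GENCODE M21. Among the 31 detected collagens, the transcript with the highest TPM was not a whole-gene one in 12 (38.7%), against 30.2% of detected protein-coding genes. The median share of a gene's TPM in whole-gene transcripts was 56.2% and 52.2% for the detected collagens, against 85.1% and 85.7% for detected protein-coding genes.

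The 12 partial leading transcripts were 280 to 3511 nucleotides long. They belonged to Col12a1, Col14a1, Col15a1, Col16a1, Col20a1, Col22a1, Col26a1, Col27a1, Col4a5, Col5a1, Col6a4 and Col9a1. Of them 8 are annotated as protein-coding and 4 as processed transcripts. Their position was one-sided: 11 of 12 start downstream of the gene's midpoint, against 31.2% of the partial leading transcripts of all detected protein-coding genes. The exception is the Col9a1 transcript. Coverage along the genes was not analysed here, so its part in this placement was not tested.

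Col22a1 shows how the TPM divides. Its whole-gene transcript Col22a1-201, with 64 exons and 8809 nucleotides, had 1403 and 1524 counts, a TPM of 4.04 and 4.2. Col22a1-202, a 659-nucleotide transcript from 57.3% to 69.3% of the gene's length, had 2035 and 2038 counts, a TPM of 110.3 and 107. The short transcript took somewhat more counts than the long one and a far higher TPM, since TPM divides by length. Col22a1-203, of 1210 nucleotides from 33.5% to 54.3% of the gene, had a TPM of 36.6 and 36.0. A further transcript of 688 nucleotides, ENSMUST00000159410.1, which M21 does not hold, had 74.9 and 68.0. The glycine run in Col22a1-202, which opens the stretch printed above, is 34 triplets long, against 113 in the whole-gene transcript.

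Col26a1 rested on an even shorter transcript, Col26a1-204, a processed transcript of 280 nucleotides in 3 exons. It is shown because it alone carried 88.4% and 89.2% of the gene's TPM. It spans 136757663 to 136773046 on the minus strand of chromosome 5, and the 92 bases that lie outside the exons of the whole-gene transcript Col26a1-201 are in capitals.
Col26a1-204: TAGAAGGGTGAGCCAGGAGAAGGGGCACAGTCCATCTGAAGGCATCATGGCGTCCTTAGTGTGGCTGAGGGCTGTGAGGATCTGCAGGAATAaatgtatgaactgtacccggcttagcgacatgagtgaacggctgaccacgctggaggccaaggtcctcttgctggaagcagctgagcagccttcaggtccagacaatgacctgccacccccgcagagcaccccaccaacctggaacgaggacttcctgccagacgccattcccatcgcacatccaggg

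The other 188 bases are shared with coding exons of the whole-gene transcript, and the longest glycine run is 2 triplets. Col26a1-204 had 337 and 321 counts, 21.3% and 22.1% of the gene's counts. The deposited effective length, the number of positions at which a fragment can start, was only 78.5 and 73.5 bases for it, so its TPM of 106 and 104 rests on a small divisor. The whole-gene transcripts of Col26a1 had a summed TPM of 11.5 and 10.

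In Col16a1 the leading transcript by TPM was Col16a1-207, a processed transcript of 833 nucleotides with 3 exons at the 3′ end of the gene, at 52.5 and 53.1. By counts Col16a1-210 led, with 3882 and 3928. It is a protein-coding transcript of 61 exons that starts 15.8% into the gene and so falls short of the whole-gene limit. Its TPM was 25.1 and 24.3, and that of the 70-exon Col16a1-201 was 3.12 and 3.33.

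In Col20a1 the whole-gene transcript Col20a1-201 held most of the counts, 3928 and 3849 of 4538 and 4385. That transcript had a TPM of 24.4 and 22.9, the highest whole-gene value of any collagen, beside 35.0 and 29.9 for the 633-nucleotide Col20a1-204. Col15a1 was divided among 4 transcripts, and the whole-gene Col15a1-202 had a TPM of only 2.46 and 1.36. Col15a1-203 (13.2 and 11.6) and Col15a1-204 (7.70 and 7.16) both run to the 3′ end of the gene, which encodes the C-terminal domain that is released from this collagen as a fragment.

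**Figure D3:**
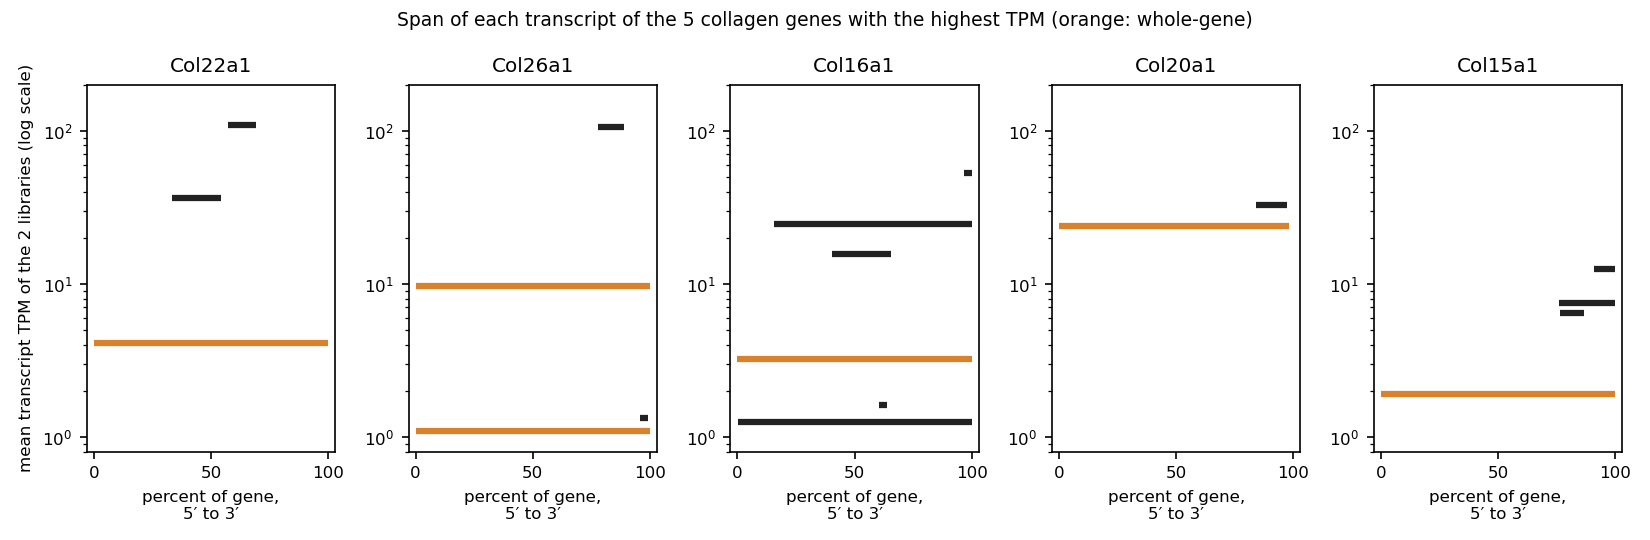
Horizontal bars place each M21 transcript with a mean TPM of at least 1 along its gene (percent of gene length, 5′ to 3′) at its mean TPM on a log axis, for the 5 collagen genes with the highest TPM. Whole-gene transcripts (orange) lie below a shorter transcript (black) in all 5 genes.

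Counted on whole-gene transcripts alone, the order of the collagens changed. By the mean of the libraries the highest were Col20a1 (24.4 and 22.9), Col1a2 (23.5 and 18.1), Col6a1 (18.7 and 13.3), Col1a1 (15.2 and 11.98) and Col3a1 (14.5 and 10.3). These genes had the same order within each library, and Col20a1 led in both, by only 0.92 TPM in replicate 1. When values of different libraries are compared, every step of this order overlapped. Col2a1 (11.9 and 12.6) overlapped Col1a1 and Col3a1 and exceeded both in replicate 2. The fibrillar class held 13.5% and 12.5% of the collagen TPM from all transcripts, and 35.5% and 34.1% of the whole-gene TPM. Type IV went from 3.68% and 4.19% to 11.6% and 13.4%, and the other collagens from 82.8% and 83.3% to 53.0% and 52.5%. Whole-gene transcripts held 72.1% and 70.6% of the collagen counts but 27.9% and 25.9% of the TPM.

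**Figure D4:**
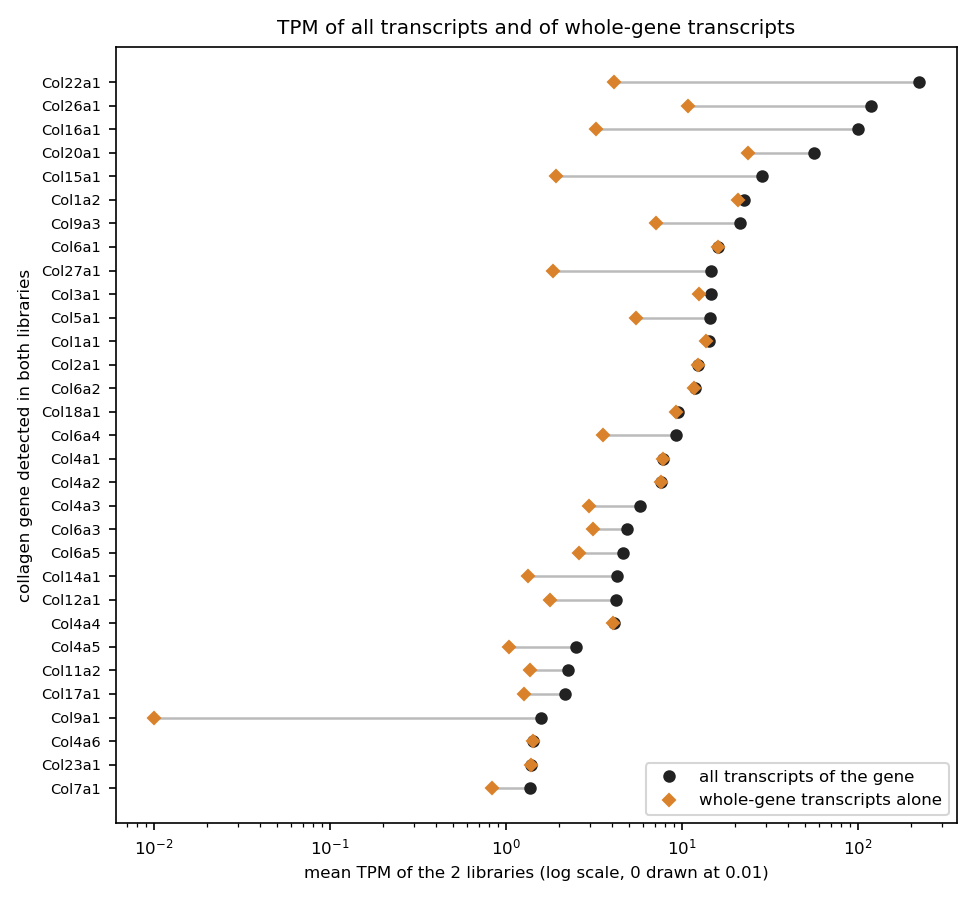
For the 31 detected collagens, the mean TPM of the 2 libraries over all transcripts (black) and over whole-gene transcripts alone (orange) is drawn on a log axis. The symbols are far apart for Col22a1, Col16a1 and Col15a1 and nearly coincide for Col1a1, Col6a1, Col4a1 and Col2a1.

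Among the fibrillar genes, the type I chains were led by single whole-gene transcripts. Col1a2, the α2 chain, on the plus strand of chromosome 6 from 4504814 to 4541544, had a gene TPM of 24.7 and 20.2. Col1a1, on the plus strand of chromosome 11 from 94936224 to 94953042, had 16.0 and 12.4. The α2 gene thus exceeded the α1 gene 1.54-fold and 1.62-fold. As background, the common type I molecule holds more α1 than α2 chains. Col3a1, the chain of type III collagen of soft tissues, had a TPM of 15.1 and 13.9.

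Col3a1-201 held 96.3% of the Col3a1 TPM in replicate 1 and 73.7% in replicate 2, where the 737-nucleotide Col3a1-205 held 25.7% from 79.98 counts. Col3a1 counts, in turn, were 3152 and 2400, a larger difference than in its TPM. Col5a1, a type V chain that sits inside type I fibrils, had a gene TPM of 16.6 and 12.3 but a whole-gene TPM of 6.22 and 4.78. Its partners Col5a2 (1.00 and 0.84) and Col5a3 (0.91 and 0.53) were far lower. Col27a1 had 16.0 and 13.2, of which whole-gene transcripts gave 1.81 and 1.87.

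Col2a1, the fibrillar collagen of cartilage, was detected at a gene TPM of 11.9 and 12.6. It lies on the minus strand of chromosome 15 from 97975602 to 98004695. Its leading transcript Col2a1-202, with 53 exons, had 2245 and 2466 counts. Col2a1-201, with 54 exons, had 0 counts in both, and the deposited upper bounds of its TPM were 0.186 and 0.189. The transcripts differ in coding sequence by exon 2 of Col2a1-201, 204 bases at 98000403 to 98000606, which encodes a cysteine-rich propeptide domain. It is printed with its 10 cysteine codons in capitals.
Col2a1-201 exon 2: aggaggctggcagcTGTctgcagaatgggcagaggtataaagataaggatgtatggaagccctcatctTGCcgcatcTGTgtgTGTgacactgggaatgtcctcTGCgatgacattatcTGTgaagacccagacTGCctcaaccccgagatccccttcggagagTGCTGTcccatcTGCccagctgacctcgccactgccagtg

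In cartilage biology the form without this exon is known from differentiated chondrocytes and the form with it from precursors and other tissues. Here the counts went to the form without it. Other cartilage markers were mixed: 2 of 6 were detected, Comp (163 and 152) and Cnmd (1.53 and 2.25), against 62.1% of all protein-coding genes. Acan was at 0.20 and 0.19 and Matn1 had 0 counts in both libraries. Hapln1 had 55 and 4 counts, and Matn3 had 18 and 8. Col11a2, a chain of the minor cartilage fibril collagen type XI, had 2.10 and 2.41, against 0.24 and 0.21 for Col11a1. Col9a3 had 20.8 and 22.0, of which Col9a3-201 gave 6.62 and 7.33 and 4 retained-intron transcripts gave most of the rest.

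Col9a3 overlaps Tcfl5 on the opposite strand, a gene with a TPM of 171 and 154. The libraries are stranded, but the strand setting used in counting was not given in the sources used here, so reads of the 2 genes may not be fully separated. Col9a1, also type IX, had 1.63 and 1.53, all but 1 count of it on Col9a1-202, whose start lies 23.4% into the gene. The upstream-start Col9a1-201 had 0 counts in both libraries. As background, the upstream start is the one known from cartilage and the downstream one from the eye. With Col9a2 at 4 and 6 counts, the 3 type IX chains were at very unequal levels.

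The type IV genes lie in 3 head-to-head pairs, and each pair shares the region where both genes start. Type IV chains assemble as α1 with α2, as α3 with α4 and α5, or as α5 with α6. Col4a1 and Col4a2 overlap by 22 bases on chromosome 8, Col4a4 and Col4a3 are 71 bases apart on chromosome 1, and Col4a6 and Col4a5 are 1308 bases apart on the X chromosome. The sequences between or beside the starts are given on the plus strand, with matches to GGGCGG (GC box), CCAAT and TATAAA on either strand in capitals. They come from the RefSeq promoter windows of GRCm38.p6, which is mm10, at chr8:11312805-11312826, chr1:82586850-82586920, chrX:141474077-141474196 and chrX:141475265-141475384.
Col4a1 and Col4a2 overlap: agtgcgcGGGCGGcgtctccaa
Between Col4a4 and Col4a3: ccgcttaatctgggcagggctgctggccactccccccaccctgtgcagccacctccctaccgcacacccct
Before Col4a6: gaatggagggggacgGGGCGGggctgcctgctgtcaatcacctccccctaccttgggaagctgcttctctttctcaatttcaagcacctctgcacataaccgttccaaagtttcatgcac
Before Col4a5: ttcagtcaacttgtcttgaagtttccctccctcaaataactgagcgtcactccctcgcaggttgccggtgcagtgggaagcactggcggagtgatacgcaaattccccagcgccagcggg

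The Col4a1 and Col4a2 overlap and the stretch before Col4a6 each hold a GC box, and the other 2 stretches printed hold none of the 3 motifs. Windows of 300 bases, 250 before and 50 after a start, matched 35 of the 44 collagens in 38 windows. GGGCGG on either strand was in 23 of the 38 (60.5%), against 35.7% of all 32851 windows. CCAAT was in 34.2%, against 37.4%, and TATAAA in 13.2%, against 13.6%. Of the type IV genes 5 had a window, all but Col4a3. GGGCGG was in 4 of these (Col4a1, Col4a2, Col4a5 and Col4a6) and CCAAT in 3 (Col4a1, Col4a2 and Col4a5), so the Col4a5 window holds both outside the stretch printed.

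Levels were nearly equal within the Col4a1 and Col4a2 pair and less so within the other pairs. Col4a1 had a TPM of 8.21 and 7.36 and Col4a2 of 7.96 and 7.28, ratios of 1.03 and 1.01. Col4a3 had 4.71 and 6.87 and Col4a4 3.59 and 4.66, ratios of 1.31 and 1.47. Col4a5 had 2.51 and 2.45 and Col4a6 1.59 and 1.27, ratios of 1.58 and 1.93. The order within these 2 pairs turned on whole-gene transcripts alone, where the ratios were 0.713 and 0.745 for Col4a3 over Col4a4 and 0.703 and 0.764 for Col4a5 over Col4a6. The Col4a1 and Col4a2 pair was above every other type IV gene in both libraries, although Col4a3 in replicate 2 came within 0.41 TPM of Col4a2. Of the Col4a3 TPM, 42.4% and 49.3% was on Col4a3-204, a 627-nucleotide transcript with 34.3 and 59.9 counts. On whole-gene transcripts Col4a3 had 2.56 and 3.39, against 7.96 and 7.22 for Col4a2.

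The Col4a3 and Col4a4 pair moved against Col4a1, Col4a2 and Col4a6 between libraries. Counts of Col4a3 were 909 and 1258, a log2 ratio of replicate 2 over replicate 1 of 0.39 (95% counting interval 0.27 to 0.52). Counts of Col4a4 were 1436 and 1902, a log2 ratio of 0.33 (0.23 to 0.43). Col4a1 and Col4a2 had -0.17 (-0.26 to -0.08) and -0.16 (-0.25 to -0.07), and Col4a6 -0.33 (-0.54 to -0.12). Col4a5 had -0.18 (-0.37 to 0.01), an interval that includes 0. Both α3 and α4 were thus higher in replicate 2, and α1, α2 and α6 lower. All 9 Sertoli cell markers, genes of the epithelial cells that rest on the tubular basement membrane, were higher in replicate 2. All 9 had intervals above 0, against 26% of all genes, and 49.7% of all genes were lower there. Their median log2 ratio was 0.34 and their summed TPM 1440 and 1857. Other lists leaned the same way, with 5 of 6 pachytene spermatocyte markers (median 0.18) and 5 of 7 Leydig markers (0.11) higher. Of 7 spermatid markers 3 were higher. The part of any of these cell types in the Col4a3 and Col4a4 values was not tested.

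Over all members with a mean count of at least 10, the collagens were a little lower in replicate 2. The median log2 ratio of 42 genes was -0.15, against 0.00 for 20268 genes of all kinds. Of the 42, 31 (73.8%) were lower in replicate 2, against 49.7% of all genes. On TPM 30 were lower, where Col17a1, Col11a1 and Col6a3 took the other direction. None of the 42 passed 2-fold, against 6.28% of all genes. The counting interval lay below 0 for 23 of the 42 (54.8%), against 26% of all genes, and above 0 for 4 (9.52%), also against 26%. Collagens had a median of 1051 counts and all genes 461, so their intervals were narrower.

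The beaded filament genes had the lowest median, -0.39 over 6 genes. Col6a1 had a TPM of 18.7 and 13.3, Col6a2 of 14.4 and 9.42, and Col6a5 of 5.58 and 3.6. These 3 type VI chains had log2 ratios of -0.51, -0.61 and -0.83. Col6a3 showed -0.24 on counts, yet its TPM was 4.68 and 5.0, and Col6a4 had 10.1 and 8.41. Col6a5 had the most negative ratio of the 42 genes and Col28a1 the most positive, 0.72 (0.31 to 1.14) from 80 and 139 counts.

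Among fibrillar genes the median was -0.26. Col1a1 (-0.36), Col1a2 (-0.38), Col3a1 (-0.47), Col5a1 (-0.41) and Col5a3 (-0.80) had intervals below 0, as did Col27a1 (-0.24). Col11a2 alone of this class had an interval above 0, at 0.32 (0.10 to 0.53), and Col2a1 was at 0.06. Both type I chains and the single type III chain were thus lower in replicate 2, and Col2a1 and Col11a2 were not. Of the 5 cartilage markers with a mean count of at least 10, 4 were lower there, beside 49.7% of all genes. Hapln1 fell the most, at -3.7 (-5.78 to -2.42), and Cnmd alone was higher, at 0.23 (-0.27 to 0.73).

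The same libraries differed in markers of collagen-producing cells. Of 7 peritubular myoid markers 6 were lower in replicate 2, beside 49.7% of all genes. The list's median was -1.43 and its summed TPM 745 and 591. Actg2, the highest marker of this list at a TPM of 383 and 411, was not lower, with a log2 ratio of 0.03 (-0.01 to 0.06). Of 8 stromal fibroblast markers 7 were lower, with a median of -0.61 and a summed TPM of 80.3 and 55.1. All members of both lists were detected in both libraries, so none was at 0. The Leydig, endothelial and macrophage lists had medians of 0.11, -0.20 and -0.16. In replicate 1, where Crisp1 and some other epididymis markers were high, most myoid and fibroblast markers and the type I and III chains were also higher. The part of any of these markers in the collagen difference was not tested.

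**Figure D5:**
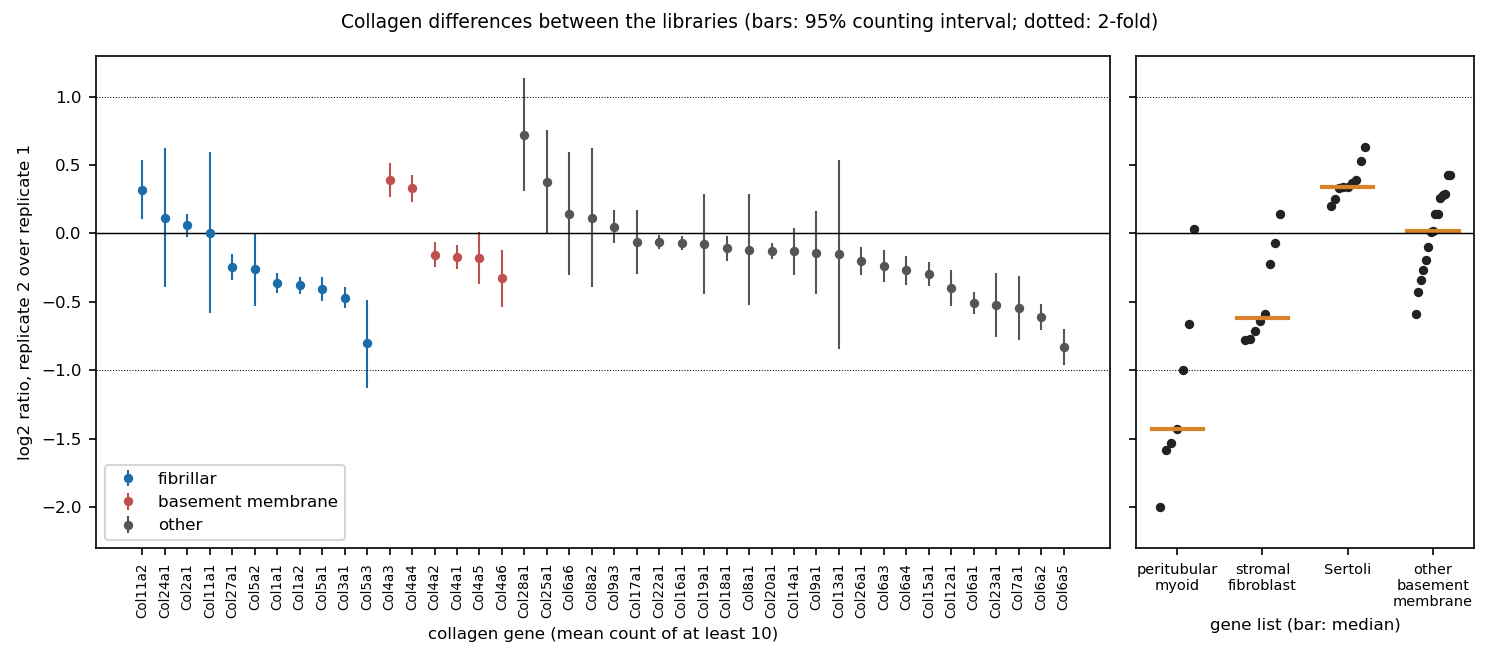
Left, the log2 ratio of replicate 2 over replicate 1 with its 95% counting interval for the 42 collagens with a mean count of at least 10, by class. Right, the ratios of 4 gene lists with their medians: the myoid and fibroblast lists lie mostly below 0, at -1.43 and -0.61, and the Sertoli list above it, at 0.34.

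The remaining detected members were Col18a1, Col14a1, Col12a1, Col17a1 and Col23a1. Col18a1, a multiplexin whose end fragment is endostatin, had a TPM of 9.86 and 9.20. Of that, 96.3% and 97.6% was on Col18a1-202, the transcript from the upstream start, while the downstream-start Col18a1-201 had 0 counts in both. Col14a1 and Col12a1, FACIT collagens of dense connective tissue, had 4.71 and 3.81, and 4.4 and 4.06, in that order. Col17a1, the transmembrane collagen of hemidesmosomes, had 1.85 and 2.47, and Col23a1, another transmembrane collagen, 1.63 and 1.15. Col12a1 overlaps an antisense gene, 4930562D21Rik, at 2.69 and 3.95.

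Of 18 genes that modify and fold collagen chains 15 were detected, beside 62.1% of all protein-coding genes, the share against which the counts of the lists below are also read. They were led by Ppib, a proline isomerase of the endoplasmic reticulum, at 55.6 and 54.9, and P4hb, the β subunit of prolyl 4-hydroxylase, at 41.3 and 47.7. P4ha3, a catalytic subunit of the same enzyme, was the only one past 2-fold, at 17 and 69 counts, beside 6.28% of all genes. That share also stands beside the genes past 2-fold in the lists below. The 18 genes had a median log2 ratio of 0.11. Of them 11 were higher and 7 lower in replicate 2, where 49.7% of all genes were lower. This list thus did not share the negative median of the collagens.

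Of 10 secretion and propeptide processing genes 5 were detected, led by Pcolce, the enhancer of the C-propeptidase, at 90.6 and 85.1. Mia3, a receptor that loads collagen into transport carriers, followed at 53.7 and 68.9. Its counts of 2523 and 2588 gave a log2 ratio of -0.04 (-0.12 to 0.04), so the TPM difference was not in the counts. Its transcripts were not examined. Tll1, a propeptidase, was past 2-fold at 8 and 18 counts, but the counting interval of its log2 ratio, -0.18 to 2.5, includes 0. Of 6 crosslinking enzymes 2 were detected, Loxl1 at 16.3 and 17.9 and Pxdn, which crosslinks type IV collagen, at 3.27 and 3.29. Loxl2, at 336 and 175 counts, was past 2-fold lower in replicate 2.

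Of 10 collagen receptors 6 were detected, led by Ddr1 (11.2 and 10.3) and Itgb1 (7.27 and 8.31), and Lair1, an inhibitory receptor of leukocytes, was past 2-fold at 30 and 71 counts. Of 12 breakdown genes 7 were detected, led by the inhibitor Timp2 (71.6 and 80.1) and the membrane protease Mmp14 (12.6 and 13.0). Of 15 other basement membrane genes 13 were detected, led by the laminin chains Lamb2 (21.6 and 20.3) and Lamc3 (10.9 and 14.9). That list's median log2 ratio was 0.02, with 9 of 15 higher and 6 lower in replicate 2, where 49.7% of all genes were lower.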

How the data were processed

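Gene and transcript tables of both libraries were used as deposited. Per the file headers they hold expected counts, TPM, FPKM, transcript percentages and posterior means with bounds; per the deposited readme the authors used mm10 with annotation M4. The program that made them was not given in the sources used here. Symbols and coordinates came from GENCODE M21 by Ensembl identifier (42462 of 43346 genes), and 198 of 201 collagen transcripts were found there. Of these 198, 187 had the same length in M21 as deposited. Log2 ratios were taken on rounded expected counts scaled by TMM (edgeR 4.0.16), with a prior of 0.5 and exact (Clopper-Pearson) 95% intervals. They were tried on simulated counts that held counting error alone. That simulation does not test the intervals against variation between animals or dissections. The naming rule uses no measured value, but the members and lists were chosen with earlier results of these data known. The whole-gene limit of 90% was set after seeing the data. Members detected in both libraries are given in full, others by range, and of each pathway list the 2 highest genes and any past 2-fold. The glycine runs were searched in all reading frames of each transcript. Contig and junction files on mm9 were not used here. Alternatives were DESeq2 1.42.0 size factors, total counts, TPM with a pseudocount, posterior means, FPKM and other thresholds.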

Additional observations from a re-analysis of the deposited data

How the results depend on the processing

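Of 43 alternative values 33 kept their direction and stayed within the spread between libraries or within 1.5 times the count. Some of the 33 could not have done otherwise. For the class shares and the summed TPM, leaving out a library returns the other library's own value, which defines that spread. The class shares depended on length and on which transcripts were counted. The mean fibrillar share of 13.0% became 29.0% by expected counts and 34.8% on whole-gene transcripts alone. The type IV share of 3.94% became 12.5% in both of these, and 8.999% with types XV and XVIII added to the class. The share of the other collagens, 83.1%, became 58.5%, 52.8% and 78.0% in the same 3 settings. The summed TPM of 745 fell to 200.3 on whole-gene transcripts alone. Without the count minimum 1 gene passed 2-fold in place of 0, Col10a1, with 0 and 1 counts. Leaving out either library gave 31 to 32 detected genes and 18 to 19 led by a whole-gene transcript. Limits of 80% and 95% for a whole-gene transcript also gave 19. The order of the collagens and the class shares on whole-gene transcripts were not recomputed at those limits. The median log2 ratio ranged from -0.18 to -0.11 over its alternatives. No collagen changed direction under DESeq2 size factors or total counts; 3 did on TPM (Col17a1, Col11a1 and Col6a3). Transcripts of a gene share reads, and Col7a1-201 and Col7a1-202, which differ little, exchanged their counts between libraries. The cause of these shifts was not tested. No paired analysis was possible because there is a single group of 2 libraries.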
